A study of Cucumis sativus with 4 samples.

Results

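Leaf and root of cucumber plants grown on low nitrogen were set against each other gene by gene. The members were the genes that averaged 5 RPKM or more over the low nitrogen leaf library and the low nitrogen root library, which kept 10871 of the 18665 genes in the deposited table. RPKM is a read count scaled to gene length and to library size. The lowest member had a mean of 5 RPKM and the highest gene left out a mean of 4.995 RPKM. For each member the organ ratio is log2((leaf + 1)/(root + 1)) of the RPKM values, so a positive ratio means a higher level in leaf. A gene was counted as higher or lower in leaf when this ratio was at least 1 or at most -1.

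The study sequenced mRNA of Cucumis sativus by Illumina sequencing from plants in sand culture, with 4 libraries in all. Low nitrogen leaf and low nitrogen root came from plants 28 days after sowing that were fed 1 mM nitrogen as nitrate, with potassium and calcium supplied partly as sulfate and chloride. Control leaf and control root came from plants of the same age fed a complete solution with 5 mM nitrate, without added potassium sulfate, potassium chloride or calcium chloride, and phosphate, magnesium, trace elements and iron were the same in both solutions. The labels do not say how many plants went into a sample, which leaf was taken or at what hour. Each group was 1 library, so no difference below has a replicate check, no test could be made and no p-value is given.

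Mesophyll cells of a leaf fix carbon in chloroplasts, and a mature leaf exports sugar through the phloem. A root takes up nitrate, ammonium, phosphate, metals and water through its epidermis, seals its vascular cylinder with the Casparian strip and suberin, and loads the xylem. When nitrate is short, plants in general draw on high-affinity nitrate and ammonium carriers in the root and remobilise leaf nitrogen, much of which sits in Rubisco and the light-harvesting proteins. Gene symbols below are those of the Arabidopsis homologue that the deposited table names for each cucumber gene, or the usual Arabidopsis name of that homologue where the table gives none, and the roles given are roles known in Arabidopsis unless said otherwise.

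The labelled organs matched their defining genes. The 20 light-harvesting antenna genes listed took 7.13% of the summed RPKM of low nitrogen leaf and 0.0271% of that of low nitrogen root. Among 38 genes for root cell types and root development, 23 were listed at 0 in low nitrogen leaf and 5 in low nitrogen root. Of these 38 genes, 27 were below the filter. Over all 18665 genes, 16234 were above 0 in low nitrogen leaf and 17141 in low nitrogen root. Depth, estimated from the whole-read steps of the values, was 2.74 M reads in low nitrogen leaf and 3.98 M reads in low nitrogen root. The estimates were 2.93 M reads in control leaf and 4.23 M reads in control root. At these estimates a single read on a gene of 1 kb was worth 0.365 RPKM in low nitrogen leaf and 0.252 RPKM in low nitrogen root. The 10 highest genes took 18.1% of the summed RPKM of low nitrogen leaf and 11.03% of that of low nitrogen root. Across all genes, log-scale levels of low nitrogen leaf and low nitrogen root had a Pearson r of 0.64, against 0.96 between the leaf libraries and 0.96 between the root libraries, with the genes not independent of each other.

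On low nitrogen, 2222 genes (20.4%) were higher and 3440 genes (31.6%) were lower in leaf than in root. The remaining 5209 lay within the threshold. The median organ ratio was -0.32, and the middle 50% of genes ran between -1.33 and 0.71. Higher genes were 39.2% of those counted. This split moved with scaling, to 34.9% with both libraries scaled to equal sums and to 43.1% with upper quartile scaling. With the ratios centred on their median, which sets the balance by construction, 2760 genes were higher and 2738 lower (50.2%). Ratios of gene groups below can be read against the median of -0.32, and their counts against 20.4% higher and 31.6% lower. At a ratio of 5 or more in either direction there were 248 genes higher in leaf and 289 lower. Genes listed at 0 in leaf numbered 330, with a median of 28.6 RPKM in root, and genes listed at 0 in root numbered 149, with a median of 30.6 RPKM in leaf. In bulk tissue, fewer cells of a type and less RNA per cell cannot be told apart, and this holds for every organ difference below. A gene low in 1 organ passed the filter only by being high in the other, so it had to differ, and the counts and medians of gene lists below describe the compared members and not the whole list.

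**Figure D1:**
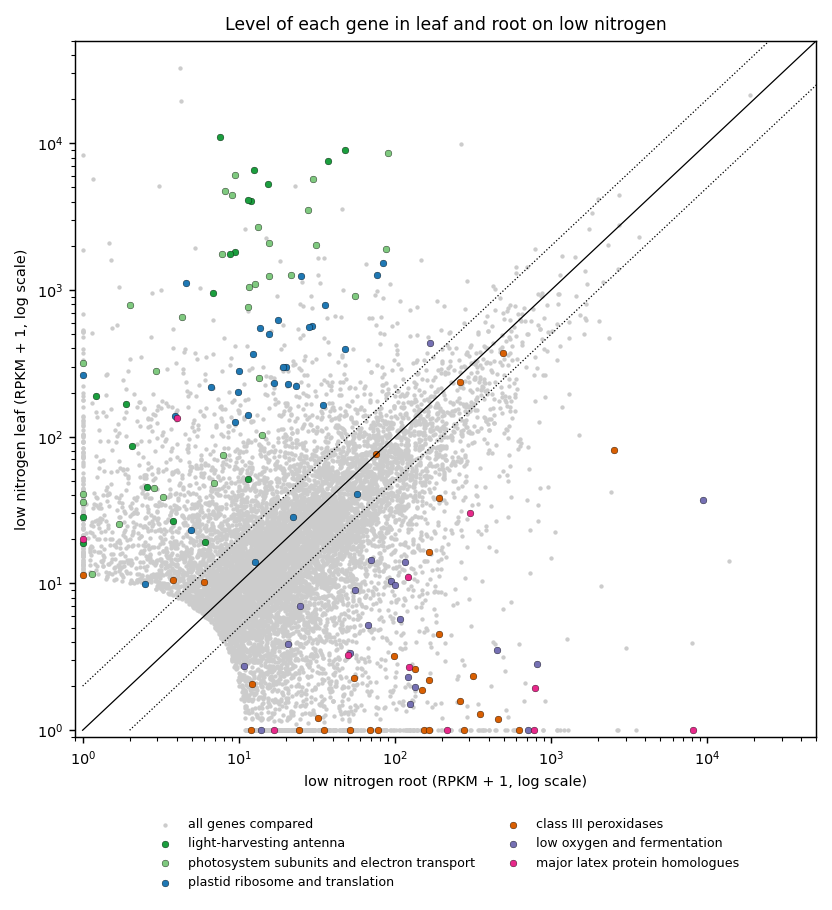
Level of each of the 10871 genes in low nitrogen leaf (vertical axis) and low nitrogen root (horizontal axis), as RPKM + 1 on log scales; the solid line marks equal levels and the dotted lines an organ ratio of 1 and -1. Antenna, photosystem and plastid ribosome genes lie high and to the left, and most class III peroxidase, low oxygen and major latex protein genes lie low and to the right, many of them at 0 in leaf.

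The gene at the leaf end of the comparison with the highest level was MT3 (AT3G15353, Cucsa.074770), a metallothionein, which are small cysteine-rich metal-binding proteins. It stood at 32371 RPKM in leaf and 3.22 RPKM in root on low nitrogen. Control leaf had 24059 RPKM and control root 31.8 RPKM. It was the most abundant transcript of the low nitrogen leaf library and near background in root, a 10053-fold difference with a 95% counting interval of 4622 to 27415. Such intervals rest on the estimated depth and on the smallest whole read numbers that the deposited values allow, and cover counting error only. The gene with the widest organ ratio, Cucsa.129020, has no Arabidopsis homologue in the table. It stood at 8376 RPKM in low nitrogen leaf and was listed at 0 in low nitrogen root, with 7238 RPKM in control leaf and 0 again in control root.

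Several other transcripts at the leaf end are chloroplast proteins. TZ (AT5G54770, Cucsa.059760), the thiazole synthase of vitamin B1 synthesis, stood at 5702 RPKM in leaf and 0.17 RPKM in root on low nitrogen. Control leaf had 5601 RPKM and control root 2.08 RPKM. The homologue RBCS (AT5G38410, Cucsa.283540), the small subunit of Rubisco, stood at 19432 RPKM in leaf and 3.24 RPKM in root on low nitrogen. Control leaf had 36769 RPKM and control root 5.4 RPKM. The low nitrogen level was 5998-fold higher in leaf, with a counting interval of 3503 to 11251. LHCA4 (AT3G47470, Cucsa.197770), an antenna protein of photosystem I, stood at 6609 RPKM in leaf and 11.4 RPKM in root on low nitrogen. Control leaf had 11823 RPKM and control root 7.63 RPKM. LHCB1.4 (AT2G34430, Cucsa.047540), a chlorophyll a/b binding protein of photosystem II, stood at 11056 RPKM in leaf and 6.53 RPKM in root on low nitrogen. Control leaf had 22999.6 RPKM and control root 2.6 RPKM. PETE2 (AT1G20340, Cucsa.343280), plastocyanin, which carries electrons to photosystem I, had 6049.7 RPKM in leaf and 8.4 RPKM in root on low nitrogen, and FD1 (AT1G10960, Cucsa.032940), a photosynthetic ferredoxin, had 4745 RPKM in leaf and 7.13 RPKM in root. FBA1 (AT2G21330, Cucsa.109120), a plastid fructose-bisphosphate aldolase, had 2081 RPKM in leaf and 0.48 RPKM in root. PRK (AT1G32060, Cucsa.149770), phosphoribulokinase, which makes the CO2 acceptor of Rubisco, had 681 RPKM in leaf and was listed at 0 in root. CDSP32 (AT1G76080, Cucsa.394020), a plastid drought-induced thioredoxin, had 533 RPKM in leaf and was also listed at 0 in root.

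Not all transcripts at the leaf end belong to the chloroplast. CCL (AT3G26740, Cucsa.156030), a CCR-like protein of no settled function, stood at 5138 RPKM in leaf and 2.09 RPKM in root on low nitrogen. Control leaf had 785 RPKM and control root 0 RPKM. GLP3B (AT5G20630, Cucsa.141690), a germin-like protein of the cell wall, stood at 1598 RPKM in leaf and 0.51 RPKM in root on low nitrogen. Control leaf had 504 RPKM and control root 0 RPKM. PRP4 (AT4G38770, Cucsa.381820), a proline-rich cell wall protein, had 1045 RPKM in leaf and 0.72 RPKM in root on low nitrogen. FMO1 (AT1G19250, Cucsa.037400), named after a flavin monooxygenase of plant immunity, had 1865 RPKM in leaf and 0 in root. The neighbouring genes RSM2 (AT4G39250, Cucsa.377640) and RSM1 (AT2G21650, Cucsa.377650), small MYB-like proteins, had 524 and 517 RPKM in leaf and were both listed at 0 in root. Among the members without a symbol, the homologues of AT5G28010 (Cucsa.375440), AT5G62420 (Cucsa.122280) and AT1G10657 (Cucsa.394320) had 516, 479 and 394 RPKM in leaf and were listed at 0 in root, and all of them were also at 0 in control root.

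At the root end, MLP34 (AT1G70850, Cucsa.012580), a major latex protein homologue, was listed at 0 in leaf and stood at 8111 RPKM in root on low nitrogen, against 0 in leaf and 10283 RPKM in root in control. Cucsa.218510, which has no homologue in the table, was at 0 in leaf and at 3473 RPKM in root. The homologues of AT4G14060 (Cucsa.372130), AT5G28010 (Cucsa.372150) and AT3G26450 (Cucsa.009370) were likewise at 0 in leaf, with 2698, 2637 and 1286 RPKM in root. UBQ9 (AT5G37640, Cucsa.045420), which the table ties to an Arabidopsis polyubiquitin gene, stood at 13.2 RPKM in leaf and 13711 RPKM in root on low nitrogen. Control leaf had 7.41 RPKM and control root 25232 RPKM. The low nitrogen level was 1036-fold lower in leaf with a counting interval of 444 to 3190.1. The homologue of AT2G32060 (Cucsa.145920), a cytosolic ribosomal protein in Arabidopsis, had 2.9 RPKM in leaf and 7999 RPKM in root on low nitrogen.

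The other named genes at the root end were of varied function. NSHB1 (AT2G16060, Cucsa.109820), a non-symbiotic haemoglobin, stood at 35.9 RPKM in leaf and 9361 RPKM in root on low nitrogen, against 36.8 RPKM in leaf and 7011 RPKM in root in control, a level 261-fold lower in low nitrogen leaf than in low nitrogen root (counting interval 213 to 323). LOX2 (AT3G45140, Cucsa.153620), a lipoxygenase of jasmonate synthesis, was at 0 in leaf and 581 RPKM in root, although Arabidopsis LOX2 is a chloroplast enzyme of leaves. AGO3 (AT1G31290, Cucsa.321880), annotated with an Argonaute homologue, was at 0 in leaf and 891 RPKM in root, on a gene listed as 25799 bases long. CYP89A5 (AT1G64950, Cucsa.017400), a cytochrome P450, was at 0 in leaf and 438 RPKM in root. PP2-A1 (AT4G19840, Cucsa.003960), a phloem lectin, was at 0 in leaf and 345 RPKM in root. MLP423 (AT1G24020, Cucsa.069400), a major latex protein of another type, had 0.95 RPKM in leaf and 784 RPKM in root. USPL1 (AT1G49320, Cucsa.240440), a BURP domain protein, had 0.23 RPKM in leaf and 290.1 RPKM in root.

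Abundance alone did not divide the organs. MT1C (AT1G07610, Cucsa.066210), another metallothionein, was the second most abundant transcript of low nitrogen leaf and the most abundant of low nitrogen root, at 21413 RPKM in leaf and 18724 RPKM in root on low nitrogen. Control leaf had 13712 RPKM and control root 4497 RPKM. ROC3 (AT2G16600, Cucsa.381810), a cyclophilin, had 2752 RPKM in leaf and 2703 RPKM in root on low nitrogen. The homologue of AT1G24620 (Cucsa.232880), a calmodulin-like protein, had 4472 RPKM in leaf and 2719.8 RPKM in root, and that of AT1G15270 (Cucsa.256550) had 2313 RPKM in leaf and 3629.8 RPKM in root, both within the threshold. Cucsa.363580, without a homologue in the table, was among the 10 most abundant root transcripts, with 2.63 RPKM in leaf and 3012 RPKM in root, and Cucsa.171240, tied to AT2G04620, was among the 10 most abundant of leaf, with 9881 RPKM in leaf and 265 RPKM in root. The 5 named genes of at least 50 RPKM with ratios nearest 0 had varied functions. HTA11 (AT3G54560, Cucsa.004660), a histone H2A variant, had 74.8 RPKM in leaf and 75.4 RPKM in root on low nitrogen. VHA-A (AT1G78900, Cucsa.359540), a vacuolar proton pump subunit, had 71.9 RPKM in leaf and 71.97 RPKM in root. HSFB2B (AT4G11660, Cucsa.107610), a heat shock factor, had 50.95 RPKM in leaf and 51 RPKM in root. PA2 (AT5G06720, Cucsa.153390), a peroxidase, had 75.2 RPKM in leaf and 74.95 RPKM in root on low nitrogen. Control leaf had 243 RPKM and control root 458 RPKM. BTF3 (AT1G17880, Cucsa.122190), a nascent polypeptide factor, had 490.3 RPKM in leaf and 487 RPKM in root on low nitrogen. Control leaf had 293 RPKM and control root 703 RPKM. The organs were level for all 5 on low nitrogen, while in control BTF3 was counted as lower in leaf and PA2, at a ratio of -0.91, lay within the threshold.

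**Figure D2:**
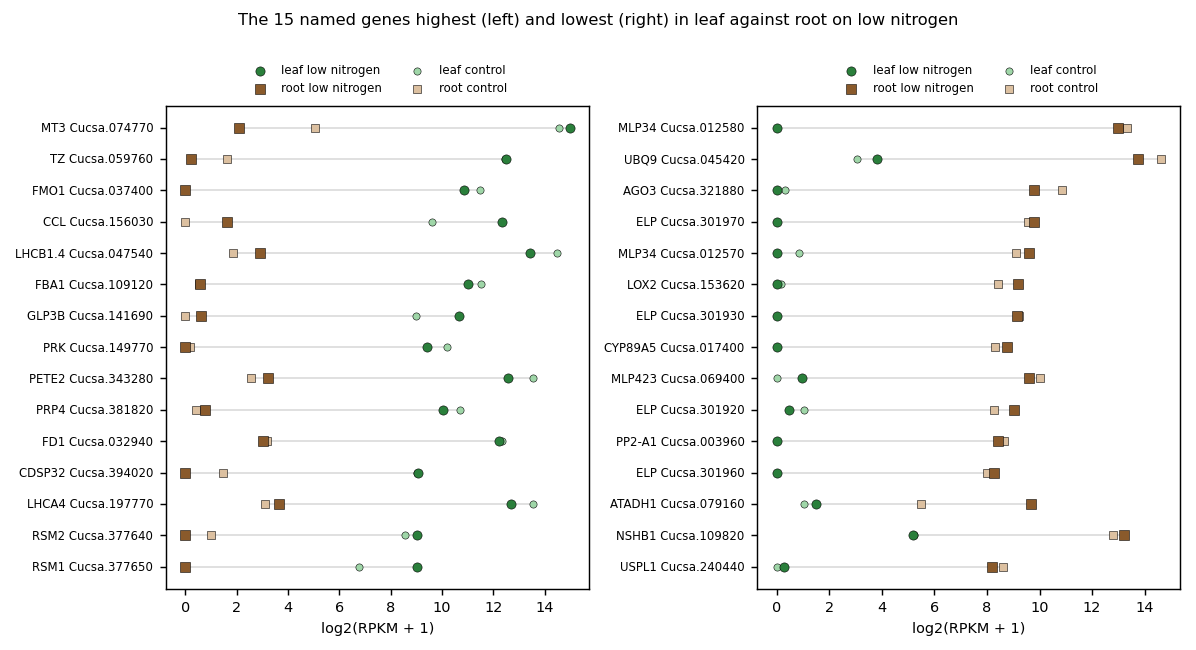
Levels, as log2(RPKM + 1), of the 15 genes with a symbol highest in leaf (left panel) and the 15 lowest in leaf (right panel) by organ ratio on low nitrogen; circles are leaf libraries, squares root libraries, dark symbols low nitrogen and pale symbols control. In every row the pale symbols lie on the same sides as the dark ones, with the widest move between nutrient groups in root for ATADH1 (Cucsa.079160), at 813 RPKM on low nitrogen against 44.3 RPKM in control.

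Photosynthesis genes made up the most uniform group. All 19 antenna genes compared and all 31 photosystem and electron transport genes compared were higher in low nitrogen leaf, with median ratios of 7.28 and 6.32 and lowest ratios of 1.68 and 2.81. The lowest antenna ratios belonged to ELIP1 (AT3G22840, Cucsa.254640), an early light-induced protein, at 18.3 RPKM in leaf and 5.04 RPKM in root, and to the homologue of LHCB7 (AT1G76570, Cucsa.272510), at 50.2 RPKM in leaf and 10.5 RPKM in root. In control the same genes had medians of 8.34 for the antenna and 6.72 for the photosystems. All 20 antenna genes listed took 7.13% of summed RPKM in low nitrogen leaf and 14.3% in control leaf. All 36 photosystem genes listed took 7.09% and 11.8%. Both lists were thus a smaller part of the leaf transcriptome on low nitrogen while the organ ratios stayed wide. LHCB1.3 (AT1G29930, Cucsa.118220) is an example, with 8956 RPKM in leaf and 46.6 RPKM in root on low nitrogen. Control leaf had 20926 RPKM and control root 39.3 RPKM. LHCB2.2 (AT2G05070, Cucsa.100400) had 7578 RPKM in leaf and 36.5 RPKM in root on low nitrogen. Control leaf had 14263 RPKM and control root 21.04 RPKM. PSBX (AT2G06520, Cucsa.141580), a small photosystem II subunit, had the highest root level of these lists, with 8542 RPKM in leaf and 89.6 RPKM in root on low nitrogen. Control leaf had 11564 RPKM and control root 116 RPKM.

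Carbon fixation followed the same direction with exceptions that were copies of plastid enzymes. Of 20 Calvin cycle genes compared, 18 were higher and 2 lower in leaf, with a median ratio of 5.59. The lower genes were a homologue of the transketolase gene TKL2 (AT2G45290, Cucsa.362700), at 1.84 RPKM in leaf and 127 RPKM in root, and a homologue of the plastid aldolase FBA3 (AT2G01140, Cucsa.280620), at 14.5 RPKM in leaf and 117 RPKM in root. Another TKL2 homologue, Cucsa.257550, went the other way, with 107 RPKM in leaf and 2.27 RPKM in root. RCA (AT2G39730, Cucsa.165160), Rubisco activase, stood at 509 RPKM in leaf and 0.15 RPKM in root on low nitrogen. Control leaf had 2231 RPKM and control root 0.98 RPKM. Of 17 photorespiration genes compared, 11 were higher and 1 was lower, with a median of 3.38. STM (AT4G37930, Cucsa.103800), the table's symbol for the mitochondrial serine hydroxymethyltransferase SHM1, had 263 RPKM in leaf and 0.41 RPKM in root. GGT2 (AT1G70580, Cucsa.286390), a glutamate:glyoxylate aminotransferase of the peroxisome, had 189 RPKM in leaf and 0 in root. The lower gene was DiT1 (AT5G12860, Cucsa.065540), the plastid 2-oxoglutarate/malate carrier, which also serves ammonium assimilation, at 11.4 RPKM in leaf and 64.1 RPKM in root.

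Pigment synthesis and plastid translation were also higher in leaf. Of 30 chlorophyll and carotenoid genes compared, 24 were higher and 3 lower, with a median of 3.06. PORB (AT4G27440, Cucsa.123300), the light-dependent protochlorophyllide oxidoreductase, had the highest level, with 5120.0 RPKM in leaf and 21.99 RPKM in root on low nitrogen. Control leaf had 6926 RPKM and control root 30.4 RPKM. GUN5 (AT5G13630, Cucsa.191410), the table's symbol for the magnesium chelatase subunit CHLH, had 161 RPKM in leaf and 2.04 RPKM in root. The lower genes included 1 of 3 phytoene synthase copies, PSY (AT5G17230, Cucsa.153210), at 2.23 RPKM in leaf and 9.48 RPKM in root, while PSY (AT5G17230, Cucsa.179860) had 54.2 RPKM in leaf and 1.49 RPKM in root. Of 30 plastid ribosome and translation genes, 27 were higher, none was lower and 3 lay within the threshold, with a median of 4.11. emb2394 (AT1G05190, Cucsa.148470), a plastid ribosomal protein, had the highest leaf level of them, with 1522 RPKM in leaf and 82.7 RPKM in root on low nitrogen. Control leaf had 904 RPKM and control root 45.5 RPKM. CSP41A (AT3G63140, Cucsa.137370), an RNA-binding protein of the chloroplast, had 263 RPKM in leaf and was listed at 0 in root. Its partner CSP41B (AT1G09340, Cucsa.353920) had 1118 RPKM in leaf and 3.58 RPKM in root. RABE1b (AT4G20360, Cucsa.196490), the plastid elongation factor EF-Tu, had 1237 RPKM in leaf and 23.9 RPKM in root.

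Markers of the leaf surface were present in leaf at moderate levels, and 24 of the 41 genes listed were below the filter. Of 17 compared, 11 were higher and 5 lower. STOMAGEN (AT4G12970, Cucsa.387770), a peptide that promotes stomatal formation, had 136 RPKM in leaf, and EPF1 (AT2G20875, Cucsa.147790), a peptide that restrains it, had 91.4 RPKM, and both were at 0 in root on low nitrogen and in control. Homologues of the guard cell factor MYB60 (AT1G08810) had 32.2 and 25.7 RPKM in leaf and 0.25 and 0.2 RPKM in root (Cucsa.337320 and Cucsa.022180). CER6 (AT1G68530, Cucsa.283590), a fatty acid elongase of leaf wax, had 66.6 RPKM in leaf and 0 in root. The lower genes included CER4 (AT4G33790, Cucsa.385180), a fatty acyl reductase, at 0 in leaf and 55.1 RPKM in root, while its copy Cucsa.200150 had 15.2 RPKM in leaf and 0 in root. MUTE (AT3G06120, Cucsa.254010), a stomatal lineage factor in Arabidopsis, had 5.74 RPKM in leaf and 38.2 RPKM in root, against its name as a leaf marker. SRK2E (AT4G33950, Cucsa.170130), also on this list, was lower in leaf, with 19.5 RPKM in leaf and 169 RPKM in root on low nitrogen. Control leaf had 3.64 RPKM and control root 135 RPKM.

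Of 20 regulators of leaf polarity, growth and greening, 11 were higher and 5 lower, with a median of 1.22. GNC (AT5G56860, Cucsa.353330), a GATA factor of greening, had 59.9 RPKM in leaf and 0.28 RPKM in root. YAB5 (AT2G26580, Cucsa.132170), a YABBY factor of leaf blade growth, had 46.5 RPKM in leaf and 0 in root. YAB3 (AT4G00180, Cucsa.320600) had 33.6 RPKM in leaf and 0.05 RPKM in root. GLK1 (AT2G20570, Cucsa.087530), a factor that drives chloroplast genes, had 19.6 RPKM in leaf and 0 in root. The genes lower in leaf were mostly polarity factors that also pattern vascular tissue, with KAN1 (AT5G16560, Cucsa.122130) at 0 in leaf and 10.8 RPKM in root, and REV (AT5G60690, Cucsa.386080) at 16.8 RPKM in leaf and 59.9 RPKM in root.

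Root tissue genes showed the reverse. Of 38 genes for root cell types and root development, 27 were below the filter. Of the 11 compared, 8 were lower and 1 was higher in leaf, with a median of -3.85. Homologues of the Casparian strip membrane proteins CASP2 (AT3G11550, Cucsa.083570) and CASP5 (AT5G15290, Cucsa.284900) were at 0 in leaf and at 84.6 and 75.2 RPKM in root. MYB36 (AT5G57620, Cucsa.092250), the endodermis factor that switches these proteins on, was at 0 in leaf and at 29.9 RPKM in root, and RHD6 (AT1G66470, Cucsa.006340), a root hair factor, was at 0 in leaf and at 21.7 RPKM in root. The higher gene was LBD18 (AT2G45420, Cucsa.257700), a lateral organ boundary factor, at 10.9 RPKM in leaf and 3 RPKM in root. Of the suberin genes, 3 of 9 passed the filter. GPAT5 (AT3G11430, Cucsa.165180), an acyltransferase, was at 0 RPKM in leaf and 10.3 RPKM in root. CYP86A1 (AT5G58860, Cucsa.146950), a fatty acid hydroxylase, was at 0.62 RPKM in leaf and 14.4 RPKM in root. KCS20 (AT5G43760, Cucsa.254780), an elongase that also serves leaf wax, was higher in leaf, at 29.9 RPKM in leaf and 11.9 RPKM in root.

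**Figure D3:**
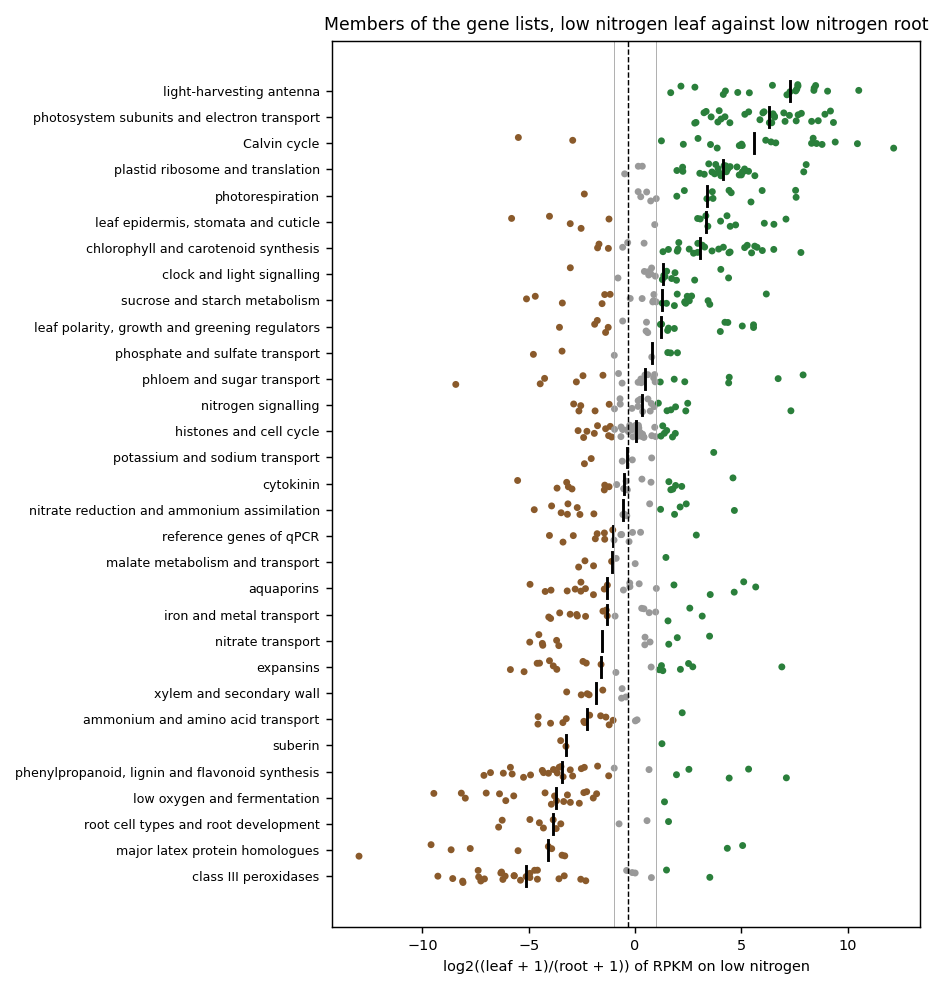
Organ ratio, log2((leaf + 1)/(root + 1)), of every compared member of the 31 gene lists on low nitrogen, 1 point a gene, green where higher in leaf, brown where lower and grey within the threshold; black bars are list medians, the dashed line the median of all genes (-0.32) and thin lines ratios of 1 and -1. Medians run from 7.28 for the antenna down to -5.12 for class III peroxidases.

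Nitrate carriers divided between the organs by member. Of 26 genes listed, 12 were compared, of which 6 were lower and 3 higher in leaf, against 31.6% and 20.4% of all genes. The list median was -1.57 and turned to 0.13 when no filter was applied, so it says little beyond the members. The high-affinity carriers NRT2.4 (AT5G60770, Cucsa.268720) and NRT2.5 (AT1G12940, Cucsa.286270) were at 0 in leaf in both nutrient groups, with 22.1 and 19.6 RPKM in low nitrogen root against 48.6 and 0.15 RPKM in control root. NRT1.5 (AT1G32450, Cucsa.321620), homologue of the carrier that loads nitrate into the xylem, stood at 0.48 RPKM in leaf and 44.9 RPKM in root on low nitrogen. Control leaf had 2.24 RPKM and control root 50.6 RPKM. Its copy NRT1.5 (AT1G32450, Cucsa.257150) stood at 6.35 RPKM in leaf and 148 RPKM in root on low nitrogen. Control leaf had 2.83 RPKM and control root 47.9 RPKM. NAXT1 (AT3G45650, Cucsa.213410), a nitrate efflux carrier of the root plasma membrane, had 0.21 RPKM in leaf and 14.6 RPKM in root.

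The homologues of the nitrate transceptor NRT1.1 took different places. NRT1.1 (AT1G12110, Cucsa.302000) was at 0 in leaf, with 11.03 RPKM in low nitrogen root against 235 RPKM in control root. The other copy, NRT1.1 (AT1G12110, Cucsa.320700), lay within the threshold at 40.3 RPKM in leaf and 29.1 RPKM in root on low nitrogen. Control leaf had 34.6 RPKM and control root 31.5 RPKM. The other 3 carriers counted were higher in leaf. NRT1.4 (AT2G26690, Cucsa.292790), known from the petiole, had 39.8 RPKM in leaf and 2.6 RPKM in root on low nitrogen. Control leaf had 54.97 RPKM and control root 1.03 RPKM. NRT1.3 (AT3G21670, Cucsa.309410), of the same family, had 22.8 RPKM in leaf and 5 RPKM in root on low nitrogen. Control leaf had 34.4 RPKM and control root 2.6 RPKM. NPF1.2 (AT1G52190, Cucsa.359270), which moves nitrate from xylem to phloem in leaves, had 22.5 RPKM in leaf and 6.84 RPKM in root on low nitrogen. Control leaf had 26.2 RPKM and control root 11.1 RPKM. NRT1.2 (AT1G69850, Cucsa.285370), a low-affinity uptake carrier, and the other NPF1.2 copy, Cucsa.161350, were within the threshold, at 10.8 RPKM in leaf and 6.27 RPKM in root and at 6.62 RPKM in leaf and 4.51 RPKM in root.

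Of 17 genes of nitrate reduction and ammonium assimilation compared, 5 were higher in leaf, 8 lower and 4 within the threshold. The list median was -0.57, against -0.32 over all genes, of which 20.4% were higher and 31.6% lower. The genes of both nitrate reduction steps and the plastid glutamine synthetase were among the 5 higher ones of the list. NR2 (AT1G37130, Cucsa.026240), nitrate reductase, stood at 425 RPKM in leaf and 79.4 RPKM in root on low nitrogen, against 179.9 RPKM in leaf and 82.8 RPKM in root in control, an organ ratio of 2.41 on low nitrogen and 1.11 in control. NIR1 (AT2G15620, Cucsa.244280), nitrite reductase, stood at 102 RPKM in leaf and 43.9 RPKM in root on low nitrogen, against 179 RPKM in leaf and 150.5 RPKM in root in control, with ratios of 1.198 and 0.24. UPM1 (AT5G40850, Cucsa.050050), which makes the sirohaem cofactor of nitrite reductase, had 37.7 RPKM in leaf and 7.92 RPKM in root. GS2 (AT5G35630, Cucsa.253880), the plastid glutamine synthetase, had the widest ratio of this list, 4.67, with 753 RPKM in leaf and 28.6 RPKM in root on low nitrogen, against 655 RPKM in leaf and 35.9 RPKM in root in control. GLU1 (AT5G04140, Cucsa.337800), ferredoxin-dependent glutamate synthase, lay within the threshold at 119 RPKM in leaf and 73.6 RPKM in root.

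The genes of this list lower in leaf included NADH-dependent, cytosolic and root-type forms. GLT1 (AT5G53460, Cucsa.040650), the NADH-dependent glutamate synthase, had 1.02 RPKM in leaf and 53.1 RPKM in root. GLN1;1 (AT5G37600, Cucsa.375220), a cytosolic glutamine synthetase, had 92.03 RPKM in leaf and 613 RPKM in root, whereas its copy GLN1;1 (AT5G37600, Cucsa.034720) had 18.4 RPKM in leaf and 4.35 RPKM in root. FD3 (AT2G27510, Cucsa.199720), a root-type ferredoxin that feeds electrons to nitrite reductase, had 26.7 RPKM in leaf and 105 RPKM in root on low nitrogen. Control leaf had 30.5 RPKM and control root 439 RPKM. Its copy FD3 (AT2G27510, Cucsa.364660) had 1.69 RPKM in leaf and 39.9 RPKM in root on low nitrogen. Control leaf had 6.3 RPKM and control root 44.1 RPKM. RFNR1 (AT4G05390, Cucsa.048250), the root-type ferredoxin reductase, had 3.97 RPKM in leaf and 29.03 RPKM in root on low nitrogen. Control leaf had 9.74 RPKM and control root 98.5 RPKM. GDH1 (AT5G18170, Cucsa.024080), a glutamate dehydrogenase, had 9.02 RPKM in leaf and 90.02 RPKM in root. GDH2 (AT5G07440, Cucsa.093950) had 0.21 RPKM in leaf and 12.5 RPKM in root. ASPGB1 (AT3G16150, Cucsa.352540), an asparaginase, had 22.5 RPKM in leaf and 209 RPKM in root. The last 3 genes lay within the threshold. ASPGA1 (AT5G08100, Cucsa.182130), another asparaginase, had 49.7 RPKM in leaf and 71.4 RPKM in root. ASN2 (AT5G65010, Cucsa.104380), an asparagine synthetase, had 75.8 RPKM in leaf and 113 RPKM in root. GLN1;4 (AT5G16570, Cucsa.128340), a glutamine synthetase, had 80 RPKM in leaf and 105 RPKM in root.

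Ammonium and amino acid carriers leaned to the root. Of 16 compared, 13 were lower in leaf and 1 was higher, with a median of -2.25. Among the 12 compared in both pairs, 9 were lower and 1 was higher on low nitrogen, with a median of -2.25, against 6 lower and 1 higher in control, with a median of -1.05. The remaining 4 passed the filter on low nitrogen only, through root. ATAMT1;2 (AT1G64780, Cucsa.178210), an ammonium transporter, had 0.46 RPKM in leaf and 33.7 RPKM in root on low nitrogen. Control leaf had 0.85 RPKM and control root 11.1 RPKM. ATAMT2 (AT2G38290, Cucsa.176640), of another ammonium transporter family, had 0.94 RPKM in leaf and 44.7 RPKM in root on low nitrogen. Control leaf had 0.73 RPKM and control root 16.6 RPKM. ATAMT1;1 (AT4G13510, Cucsa.194400), the other ammonium transporter compared, was at 63.2 RPKM in leaf and 62.6 RPKM in root. All 6 homologues of UMAMIT14 (AT2G39510, Cucsa.002600), a family member that exports amino acids from root phloem, were lower in leaf on low nitrogen. The 4 neighbours on scaffold00033, Cucsa.002590 to Cucsa.002620, had 6.34, 52.8, 1.09 and 6.12 RPKM in leaf and 31.3, 285, 18.7 and 111 RPKM in root. Their summed level was 66.3 RPKM in leaf and 446 RPKM in root on low nitrogen, against 56.4 RPKM in leaf and 157 RPKM in root in control. Cucsa.165430 and Cucsa.165440 had 8.53 and 12.2 RPKM in leaf and 21.2 and 66.8 RPKM in root on low nitrogen. In control, Cucsa.165440 again had the higher level in root, at 11.05 RPKM in leaf and 70.1 RPKM in root. Cucsa.165430 did not, at 8.25 RPKM in control leaf and 0.99 RPKM in control root.

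The amino acid importers LHT1 (AT5G40780, Cucsa.136030) and LHT2 (AT1G24400, Cucsa.156380) had 0.44 RPKM in leaf and 14.2 RPKM in root and 1.98 RPKM in leaf and 14.6 RPKM in root. CAT1 (AT4G21120, Cucsa.167140), a cationic amino acid carrier, had 2.55 RPKM in leaf and 9.91 RPKM in root. DUR3 (AT5G45380, Cucsa.322410), a urea carrier, had 13.3 RPKM in leaf and 36.1 RPKM in root. AAP6 (AT5G49630, Cucsa.312340), an amino acid permease, had 16.9 RPKM in leaf and 35.6 RPKM in root. The permease ATAAP3 (AT1G77380, Cucsa.328190) was among the most expressed carriers in both organs, with 276 RPKM in leaf and 259 RPKM in root, within the threshold. Its copy ATAAP3 (AT1G77380, Cucsa.125300) was the gene of this list higher in leaf, with 31.99 RPKM in leaf and 6.1 RPKM in root.

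Of 24 regulators of the nitrogen response compared, 7 were higher in leaf, 5 lower and 12 within the threshold. Over all genes 20.4% were higher and 31.6% lower. The list median was 0.30, against -0.32 over all genes. The difference was not tested, and the members are given singly. CEPD2 (AT2G47880, Cucsa.239210), homologue of a leaf-made glutaredoxin that signals shoot nitrogen status to the root, had 159.8 RPKM in low nitrogen leaf and 26.8 RPKM in control leaf, and was at 0 in both root libraries. TCP20 (AT3G27010, Cucsa.349500), a TCP factor, had 33.9 RPKM in leaf and 5.27 RPKM in root. LBD37 (AT5G67420, Cucsa.103050), a repressor of nitrate-responsive genes, had 41.6 RPKM in leaf and 7.16 RPKM in root on low nitrogen. Control leaf had 34.7 RPKM and control root 28.1 RPKM. The regulators lower in leaf included TGA1 (AT5G65210, Cucsa.201510), at 5.33 RPKM in leaf and 45.9 RPKM in root, and NLP2 (AT4G35270, Cucsa.272130), at 2.37 RPKM in leaf and 20.04 RPKM in root. The nitrate-induced repressor homologue HHO2 (AT1G68670, Cucsa.283860) lay within the threshold, with 7.58 RPKM in leaf and 15.8 RPKM in root on low nitrogen. Control leaf had 20.6 RPKM and control root 164 RPKM.

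**Figure D4:**
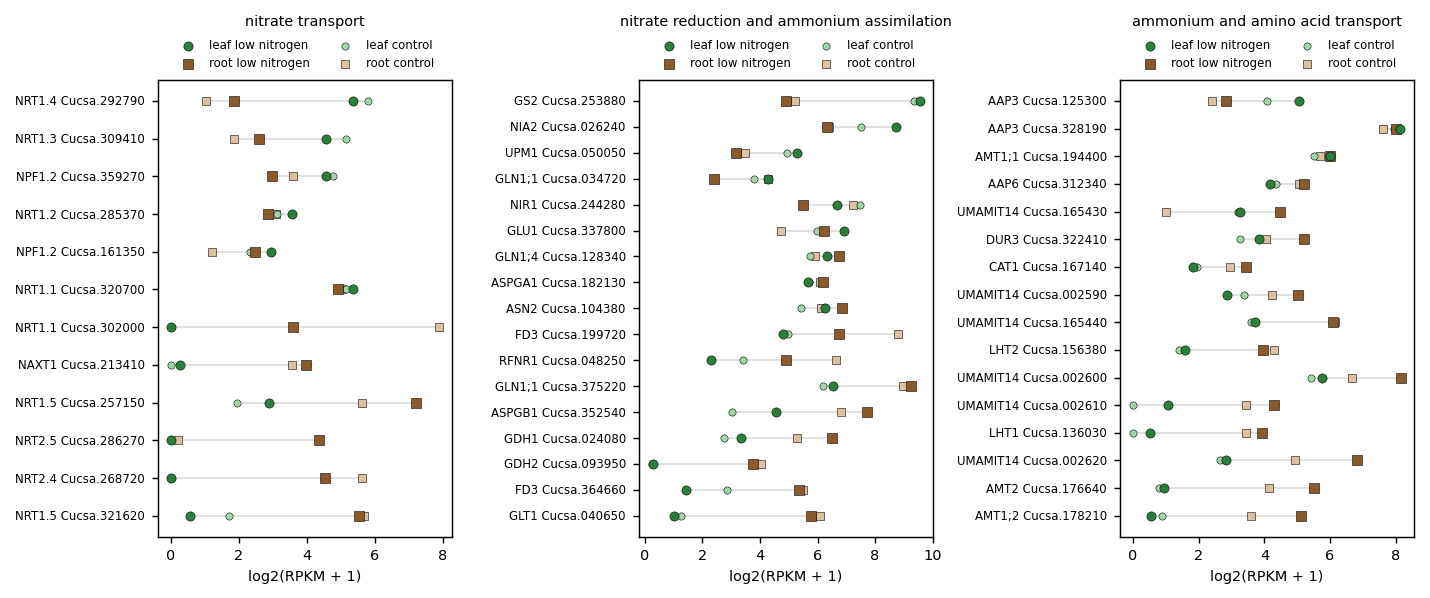
Levels, as log2(RPKM + 1), of every compared member of the 3 lists of nitrogen transport and assimilation, sorted by organ ratio on low nitrogen; circles are leaf and squares root, dark symbols low nitrogen and pale symbols control. Dark squares lie to the right of dark circles in the lower rows of each panel and to the left in the upper rows, and NRT1.1 (Cucsa.302000) and NRT2.5 (Cucsa.286270) show the widest distance between the root libraries.

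Other mineral carriers were mixed. Of 21 aquaporins compared, 11 were lower and 5 higher in leaf, against 31.6% and 20.4% of all genes, with a median of -1.304. PIP2;4 (AT5G60660, Cucsa.386110), a plasma membrane water channel, stood at 467 RPKM in leaf and 2360.4 RPKM in root on low nitrogen. Control leaf had 911 RPKM and control root 4354 RPKM. TIP2;2 (AT4G17340, Cucsa.301740), a tonoplast channel, stood at 27.3 RPKM in leaf and 529 RPKM in root on low nitrogen. Channels with a high leaf share were TIP1;1 (AT2G36830, Cucsa.306540), at 151 RPKM in leaf and 1.98 RPKM in root, and NIP5;1 (AT4G10380, Cucsa.193190), at 33.5 RPKM in leaf and 0 in root, which sits beside the lower copy Cucsa.193180 at 7.49 RPKM in leaf and 76.7 RPKM in root. PHO1 (AT3G23430, Cucsa.255580), which loads phosphate into the xylem, stood at 1.07 RPKM in leaf and 56 RPKM in root. PHT1;9 (AT1G76430, Cucsa.272390), a phosphate carrier of the root, stood at 0.46 RPKM in leaf and 14.8 RPKM in root. SULTR3;3 (AT1G23090, Cucsa.373230), a plastid sulfate carrier, stood at 37.8 RPKM in leaf and 8.75 RPKM in root. SKOR (AT3G02850, Cucsa.034670), the channel that loads potassium into the xylem, was at 7.11 RPKM in leaf and 32.9 RPKM in root. HKT1 (AT4G10310, Cucsa.281860), a sodium carrier of the stele, was at 4.62 RPKM in leaf and 28.3 RPKM in root. HAK5 (AT4G13420, Cucsa.097280), a high-affinity potassium uptake carrier, was at 13.4 RPKM in leaf and 0.11 RPKM in root.

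Of 18 iron and metal genes compared, 10 were lower and 3 higher in leaf, against 31.6% and 20.4% of all genes. Their median was -1.33, and it turned to 0.31 when the filter was set at 20 RPKM. HMA2 (AT4G30110, Cucsa.089100), a zinc pump of the vascular cylinder, was at 0 RPKM in leaf and 15.7 RPKM in root. HMA4 (AT2G19110, Cucsa.081260), of the same family, was at 4.69 RPKM in leaf and 46.3 RPKM in root. FRD3 (AT3G08040, Cucsa.127870), the citrate exporter of xylem iron transport, was at 0.96 RPKM in leaf and 29.8 RPKM in root. IRT1 (AT4G19690, Cucsa.236470), the root iron uptake carrier, lay within the threshold on low nitrogen but not in control, at 27.3 RPKM in leaf and 53.4 RPKM in root on low nitrogen. Control leaf had 14.7 RPKM and control root 175 RPKM. ZIP5 (AT1G05300, Cucsa.058410), a zinc carrier, did the same, at 75.3 RPKM in leaf and 60.5 RPKM in root on low nitrogen. Control leaf had 70.2 RPKM and control root 359 RPKM. FER2 (AT3G11050, Cucsa.144440), ferritin, was higher in leaf at 223 RPKM in leaf and 36.6 RPKM in root, as was FRO7 (AT5G49740, Cucsa.260380), a chloroplast iron reductase, at 20.2 RPKM in leaf and 1.38 RPKM in root.

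Class III peroxidases, secreted enzymes of cell wall and hydrogen peroxide chemistry, had the lowest median of any list. Of 60 genes, 31 were compared, and 25 of these were lower and 2 higher in leaf, with a median of -5.12. All 60 took 0.118% of summed RPKM in low nitrogen leaf and 1.119% in low nitrogen root. PRX52 (AT5G05340, Cucsa.000230) was at 0 in leaf in both nutrient groups, with 619 RPKM in low nitrogen root and 754 RPKM in control root. PRX54 (AT5G06730, Cucsa.153410) had 0.19 RPKM in leaf and 454 RPKM in root, and its neighbours Cucsa.153400 and Cucsa.153420, tied to the same homologue, had 15.4 and 235 RPKM in leaf and 164 and 258 RPKM in root. The most abundant was the homologue of AT2G37130 (Cucsa.307020), at 80.1 RPKM in leaf and 2509.7 RPKM in root on low nitrogen. Control leaf had 46.97 RPKM and control root 2471 RPKM. PRXR1 (AT4G21960, Cucsa.085830) was within the threshold at 370.0 RPKM in leaf and 488 RPKM in root. The peroxidase with the widest ratio toward leaf was PRX41 (AT4G17690, Cucsa.098230), at 10.4 RPKM in leaf and 0 in root.

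Phenylpropanoid genes, which supply lignin, suberin and flavonoids, were lower in leaf in 21 of 28 compared and higher in 5, with a median of -3.44. PAL1 (AT2G37040, Cucsa.124450), phenylalanine ammonia-lyase, was at 0 in leaf and 137 RPKM in root. C4H (AT2G30490, Cucsa.023230), the next enzyme, stood at 1.25 RPKM in leaf and 249.9 RPKM in root on low nitrogen. Control leaf had 1.17 RPKM and control root 353 RPKM. CAD5 (AT4G34230, Cucsa.244660), an alcohol dehydrogenase of lignin synthesis, stood at 5.74 RPKM in leaf and 494 RPKM in root. The exceptions included flavonoid genes, though not every flavonoid gene lay on the leaf side. Copies of the flavonoid gene TT7 (AT5G07990) took both sides, with Cucsa.149540 at 0.42 RPKM in leaf and 77.2 RPKM in root. The TT7 copy Cucsa.198180 had 10.6 RPKM in leaf and 2.02 RPKM in root. CHS (AT5G13930, Cucsa.155940), chalcone synthase, had 226 RPKM in leaf and 4.6 RPKM in root on low nitrogen. Control leaf had 54.2 RPKM and control root 1 RPKM. CHI (AT3G55120, Cucsa.182640), chalcone isomerase, had 78.5 RPKM in leaf and 2.7 RPKM in root on low nitrogen. Control leaf had 37.7 RPKM and control root 0.51 RPKM. OMT1 (AT5G54160, Cucsa.041910), an O-methyltransferase, had 138 RPKM in leaf and 0 in root, whereas its neighbour Cucsa.041900 had 0.2 RPKM in leaf and 23.7 RPKM in root. Of 8 xylem and secondary wall genes compared, 5 were lower and none was higher, led by the protease XCP1 (AT4G35350, Cucsa.099850) at 8.78 RPKM in leaf and 89.99 RPKM in root.

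Expansins, which loosen cell walls, fell on both sides, with 7 higher and 10 lower of 19 compared, against 20.4% and 31.6% of all genes. Their median of -1.602 turned to 1.304 when the filter was set at 20 RPKM. EXPA5 (AT3G29030, Cucsa.158210), an expansin, had 119 RPKM in leaf and 0 in root. EXPA4 (AT2G39700, Cucsa.117860) had 267 RPKM in leaf and 45.9 RPKM in root. EXPA11 (AT1G20190, Cucsa.393920) had 0.3 RPKM in leaf and 74.8 RPKM in root. In the expansin-like cluster, EXPL2 (AT4G38400, Cucsa.099370) and EXPL2 (AT4G38400, Cucsa.099310) took opposite sides, with 33.2 RPKM in leaf and 167 RPKM in root for Cucsa.099370 and 85.4 RPKM in leaf and 18.7 RPKM in root for Cucsa.099310. Among 11 major latex protein homologues compared, 9 were lower and 2 higher, and the list took 0.0275% of summed RPKM in low nitrogen leaf and 1.58% in low nitrogen root. MLP34 (Cucsa.012570) was at 0 in leaf and 773 RPKM in root, beside MLP34 (Cucsa.012580) of the root end. The leaf-high members were MLP423 (AT1G24020, Cucsa.285850), at 133 RPKM in leaf and 3.03 RPKM in root, and MLP43 (AT1G70890, Cucsa.277270), at 19.2 RPKM in leaf and 0 in root.

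Genes of sugar metabolism lay on both sides. Of 25 sucrose and starch genes compared, 13 were higher and 6 lower, with a median of 1.28. APL1 (AT5G19220, Cucsa.254110) and ADG1 (AT5G48300, Cucsa.100080), subunits of ADP-glucose pyrophosphorylase, the entry enzyme of starch synthesis, had 92.7 RPKM in leaf and 0.3 RPKM in root and 219 RPKM in leaf and 19.4 RPKM in root. TPT (AT5G46110, Cucsa.284550), the chloroplast triose phosphate carrier, had 1.37 RPKM in leaf and 60.4 RPKM in root in this copy and 60.1 RPKM in leaf and 8.68 RPKM in root in the copy Cucsa.046490. SUS4 (AT3G43190, Cucsa.142060), a sucrose synthase, was at 0 in leaf, with 33.5 RPKM in low nitrogen root and 3.02 RPKM in control root. Raffinose family sugars are transport sugars of cucurbits, and the genes of their synthesis given next were higher in leaf. GolS2 (AT1G56600, Cucsa.135140), galactinol synthase, stood at 2605 RPKM in leaf and 9.89 RPKM in root on low nitrogen. Control leaf had 2739.7 RPKM and control root 3.1 RPKM. RS5 (AT5G40390, Cucsa.339920), raffinose synthase, stood at 399.9 RPKM in leaf and 2.78 RPKM in root on low nitrogen. Control leaf had 205 RPKM and control root 2.01 RPKM. STS (AT4G01970, Cucsa.204940), stachyose synthase, stood at 26.5 RPKM in leaf and 0.3 RPKM in root on low nitrogen. Control leaf had 23.3 RPKM and control root 0.28 RPKM. Of the 23 phloem and sugar transport genes compared, 7 were higher and 6 lower, against 20.4% and 31.6% of all genes. SWEET17 (AT4G15920, Cucsa.181790), a vacuolar sugar carrier, had 20.5 RPKM in leaf and 0 in root, and SWEET12 (AT5G23660, Cucsa.134800) had 0.3 RPKM in leaf and 27.7 RPKM in root. The phloem lectin copies of PP2-A1 lay on both sides, from PP2-A1 (Cucsa.003960) at the root end to PP2-A1 (Cucsa.345860) at 36.7 RPKM in leaf and 9.53 RPKM in root.

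Genes of the low oxygen response and fermentation were lower in leaf in 19 of 20 compared, with a median of -3.74. Of these, 4 passed the filter on low nitrogen only. Among the 16 compared in both pairs, 15 were lower on low nitrogen, with a median of -3.82, against 12 in control, with a median of -2.26. All 26 genes listed took 0.0754% of summed RPKM in low nitrogen leaf and 1.89% in low nitrogen root. The homologue of AT3G29970 (Cucsa.174440), a small protein induced by low oxygen, was at 0 in both leaf libraries, with 706 RPKM in low nitrogen root and 0.9 RPKM in control root. ATADH1 (AT1G77120, Cucsa.079160), alcohol dehydrogenase, stood at 1.82 RPKM in leaf and 813 RPKM in root on low nitrogen, against 1.06 RPKM in leaf and 44.3 RPKM in root in control, a level 447-fold lower in low nitrogen leaf than in low nitrogen root (counting interval 226 to 1033). PDC2 (AT5G54960, Cucsa.046790), pyruvate decarboxylase, stood at 0.51 RPKM in leaf and 125 RPKM in root on low nitrogen. Control leaf had 0.64 RPKM and control root 22.6 RPKM. LBD41 (AT3G02550, Cucsa.199060), a transcriptional repressor, stood at 8.83 RPKM in leaf and 99.8 RPKM in root on low nitrogen. Control leaf had 9.12 RPKM and control root 37.96 RPKM. The gene higher in leaf was a homologue of AT4G10265 (Cucsa.074440), at 436 RPKM in leaf and 167 RPKM in root on low nitrogen. Control leaf had 329 RPKM and control root 22.2 RPKM. NSHB1, which this list also holds, made up most of the list's share in root. The oxygen around the roots was not given in the labels, and its part in these values was not tested.

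Clock and light signalling genes were higher in leaf in 10 of 18 compared and lower in 1, with a median of 1.32 on low nitrogen and, for the same genes, 0.52 in control. PIF4 (AT2G43010, Cucsa.058710), a light and temperature factor, had 51.04 RPKM in leaf and 1.47 RPKM in root, and the evening genes ELF4 (AT2G40080, Cucsa.368590) and FKF1 (AT1G68050, Cucsa.392760) had 127 RPKM in leaf and 6.84 RPKM in root and 34.1 RPKM in leaf and 4.03 RPKM in root. GI (AT1G22770, Cucsa.363920), the most abundant of the list, had 193 RPKM in leaf and 68.4 RPKM in root on low nitrogen. Control leaf had 62.1 RPKM and control root 49.9 RPKM. The morning gene LHY1 (AT1G01060, Cucsa.349800) was the lower member, at 3.56 RPKM in leaf and 36.7 RPKM in root. Sampling hour moves these genes, and its part was not tested. Among 21 cytokinin genes, 6 were higher and 8 lower, against 20.4% and 31.6% of all genes. The activating enzyme homologue LOG5 (AT4G35190, Cucsa.077670) had 179 RPKM in leaf and 6.41 RPKM in root. LOG7 (AT5G06300, Cucsa.241650) had 0.37 RPKM in leaf and 62.1 RPKM in root. ABCG14 (AT1G31770, Cucsa.180200), which exports cytokinin from root to shoot, had 6.03 RPKM in leaf and 60.9 RPKM in root. Of 7 malate genes, 4 were lower and 1 was higher, against 31.6% and 20.4% of all genes. TDT (AT5G47560, Cucsa.002320), the vacuolar malate carrier, had 1.48 RPKM in leaf and 14.6 RPKM in root on low nitrogen. Control leaf had 19.4 RPKM and control root 115 RPKM. PPC4 (AT1G68750, Cucsa.280800), a phosphoenolpyruvate carboxylase, had 22.6 RPKM in leaf and 120.1 RPKM in root on low nitrogen. NADP-ME1 (AT2G19900, Cucsa.288880), a malic enzyme, was the higher gene, at 57.8 RPKM in leaf and 20.5 RPKM in root.

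Genes often used as references in quantitative PCR also differed between the organs. Of 15 compared, 8 were lower and 1 was higher in leaf, with a median of -1.05, which is -0.73 from the median of all genes. Actin homologues of ACT7 (AT5G09810, Cucsa.250050) and Cucsa.345880 had 16.6 RPKM in leaf and 287 RPKM in root and 26.5 RPKM in leaf and 287 RPKM in root, while another copy, Cucsa.101160, had 151 RPKM in leaf and 240.3 RPKM in root. An elongation factor homologue, EF1A (AT5G60390, Cucsa.193990), had 620.2 RPKM in leaf and 1671 RPKM in root. Cytosolic glyceraldehyde phosphate dehydrogenase took both sides in adjacent genes, with GAPC1 (Cucsa.391850) at 264 RPKM in leaf and 911 RPKM in root and GAPC1 (Cucsa.391860) at 137 RPKM in leaf and 17.8 RPKM in root. UBC21 (AT5G25760, Cucsa.161400), a ubiquitin-conjugating enzyme, had 58.3 RPKM in leaf and 48.6 RPKM in root, within the threshold.

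The control libraries share no library with the low nitrogen pair, so they give a separate look at the organ difference. In control, 10338 genes were compared, with 1948 (18.8%) higher and 4321 (41.8%) lower in leaf and a median organ ratio of -0.68. Of 9945 genes compared in both pairs, 2016 were higher on low nitrogen, and 1618 of these (80.3%) were also higher in control, 391 were within the threshold and 7 were lower. Of 3142 lower on low nitrogen, 2840 (90.4%) were also lower in control, 297 were within the threshold and 5 were higher. Read from control, 87.1% of the 1858 higher genes and 69.2% of the 4107 lower genes were counted the same way on low nitrogen. Pearson's r of the ratios across these genes was 0.94, which describes the libraries and carries no test, since genes are not independent and all 4 libraries share 1 procedure.

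**Figure D5:**
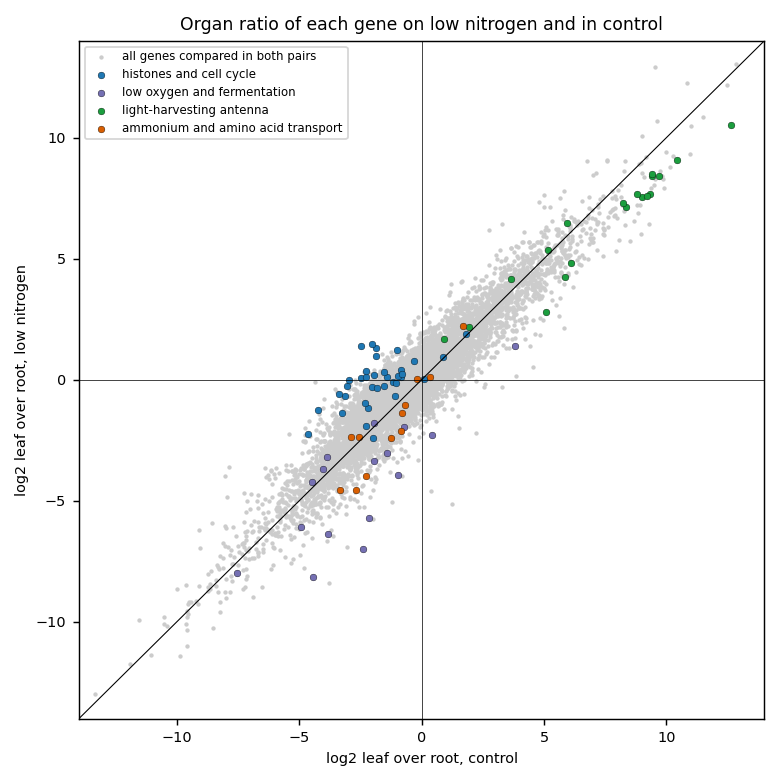
Organ ratio, log2 leaf over root, of each of 9945 genes on low nitrogen (vertical axis) and in control (horizontal axis), with 4 gene lists coloured and the line of equal ratios. Antenna genes lie mostly below the line at the upper right, low oxygen genes mostly below it at the lower left, and histone and cell cycle genes mostly above it near a ratio of 0 on low nitrogen.

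The low nitrogen ratio was on the median 0.27 above the control ratio, and single lists moved by more. Of 41 histone and cell cycle genes compared on low nitrogen, 6 were higher and 9 lower in leaf, with a median of 0.04. Among the 36 compared in both pairs, 5 were higher and 6 lower on low nitrogen, with a median of 0.06, against 1 higher and 28 lower in control, with a median of -1.92. All genes compared in both pairs had a median of -0.33 on low nitrogen and -0.68 in control. HTA7 (AT5G27670, Cucsa.091130), a histone H2A, had 1018 RPKM in leaf and 438 RPKM in root on low nitrogen. Control leaf had 155 RPKM and control root 316 RPKM. HTA12 (AT5G02560, Cucsa.379920), another H2A, had 153 RPKM in leaf and 54.1 RPKM in root on low nitrogen. Control leaf had 21.2 RPKM and control root 90.9 RPKM. CYCA1;1 (AT1G44110, Cucsa.328220), a mitotic cyclin, had 30.03 RPKM in leaf and 10.9 RPKM in root on low nitrogen. Control leaf had 1.48 RPKM and control root 13.03 RPKM. HTB1 (AT1G07790, Cucsa.124890), a histone H2B, had the highest mean of the list, with 951 RPKM in leaf and 876 RPKM in root on low nitrogen. Control leaf had 211 RPKM and control root 574 RPKM. CYCA3;2 (AT1G47210, Cucsa.395850), a cyclin, kept to the root side, with 4.99 RPKM in leaf and 27.8 RPKM in root on low nitrogen. Control leaf had 0.22 RPKM and control root 29.3 RPKM. The difference in leaf age or growth between the nutrient groups was not given in the labels, and its part in these values was not tested.

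The genes with a symbol at the far ends of the difference between the low nitrogen ratio and the control ratio differed in which organ carried the move. Toward root they were led by the alcohol dehydrogenase copy ATADH1 (AT1G77120, Cucsa.079190), at 2.52 RPKM in leaf and 450.4 RPKM in root on low nitrogen, against 6.58 RPKM in leaf and 38.5 RPKM in root in control, a difference of -4.62. DIR1 (AT5G48485, Cucsa.388050), a lipid transfer protein of systemic immunity, had 25.7 RPKM in leaf and 123 RPKM in root on low nitrogen. Control leaf had 67.8 RPKM and control root 13.7 RPKM. COPT1 (AT5G59030, Cucsa.146650), a copper carrier, had 8.37 RPKM in leaf and 2.56 RPKM in root on low nitrogen. Control leaf had 46.9 RPKM and control root 1.2 RPKM. The counting interval of the COPT1 fold of leaf over root on low nitrogen, 0.91 to 14.5, includes 1. PEN3 (AT1G59870, Cucsa.346910), an ABC transporter, had 0.3 RPKM in leaf and 48.97 RPKM in root on low nitrogen. Control leaf had 2.76 RPKM and control root 18.4 RPKM. CCR2 (AT1G80820, Cucsa.297110), a cinnamoyl-CoA reductase, had 0 RPKM in leaf and 101 RPKM in root on low nitrogen. Control leaf had 5.36 RPKM and control root 91.4 RPKM. PAL1 (Cucsa.124470), another ammonia-lyase copy, had 0.86 RPKM in leaf and 69.7 RPKM in root on low nitrogen, against 6.89 RPKM in leaf and 45.04 RPKM in root in control. EXPL2 (Cucsa.099310) was at 0 in control root and at 18.7 RPKM in low nitrogen root, while its leaf levels were 85.4 RPKM on low nitrogen and 55.1 RPKM in control.

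Toward leaf, NRT1.1 (Cucsa.302000) had the widest difference, 4.297, and was at 0 in both leaf libraries, so the whole of it came from root. RTFL12 (AT4G13395, Cucsa.116220), a small growth peptide, had 19.2 RPKM in leaf and 20.7 RPKM in root on low nitrogen. Control leaf had 2.62 RPKM and control root 72.8 RPKM. PDF1.4 (AT1G19610, Cucsa.341760), a defensin-like protein, was at 0 in both leaf libraries, with 14.6 RPKM in low nitrogen root and 261 RPKM in control root. MT3 (Cucsa.074770) combined a higher leaf level with a lower root level, as given above. RSM4 (AT1G19510, Cucsa.377690), a MYB-like protein beside RSM1 and RSM2, had 72.3 RPKM in leaf and 0 RPKM in root on low nitrogen. Control leaf had 11.7 RPKM and control root 0.9 RPKM. CYCD3;1 (AT4G34160, Cucsa.244590), a cyclin that starts cell division, had 27.1 RPKM in leaf and 10.4 RPKM in root on low nitrogen. Control leaf had 3.13 RPKM and control root 13.98 RPKM.

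Some copies of the same gene lay on opposite sides. Of 1327 Arabidopsis homologues with at least 2 cucumber genes compared, 206 (15.5%) had members on both sides, 81 had every member higher in leaf and 192 every member lower. With 20.4% of all genes higher and 31.6% lower, unrelated genes also fall on opposite sides, and this share was not set against that, so it says nothing particular about copies. The widest split, chosen after the values were seen, was that of AT5G28010, with Cucsa.375440 at 516 RPKM in leaf and 0 RPKM in root and Cucsa.372150 at 0 RPKM in leaf and 2637 RPKM in root. For AT2G45180, Cucsa.162540 and Cucsa.320800 had 1582 and 1264 RPKM in leaf and 17.3 and 31.2 RPKM in root, while Cucsa.320710, on the same scaffold03080 as Cucsa.320800, had 0 in leaf and 1216 RPKM in root. For FMO1, Cucsa.037400 lay at the leaf end and Cucsa.119550 had 3.64 RPKM in leaf and 153 RPKM in root.

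Runs of neighbouring genes with the same homologue lay on 1 side or on both. Among 32 runs with at least 3 members compared, 7 had every compared member lower in leaf, 3 had every one higher and 12 had members on both sides. With 20.4% of all genes higher and 31.6% lower, sets of unrelated genes also fall on 1 side or on both. The counts of runs were not set against that, so they say nothing particular about neighbours. The examples that follow were also chosen after the values were seen. The 6 genes named ELP on scaffold02951, Cucsa.301920 to Cucsa.301970, homologous to the lipid transfer family protein AT1G12090, summed to 0.38 RPKM in leaf and 2505 RPKM in root, and all 5 compared were lower. The 5 PAL1 neighbours on scaffold01001 summed to 14.9 RPKM in leaf and 323 RPKM in root, and all were lower. The 5 histone H4 neighbours on scaffold01196 summed to 467 RPKM in leaf and 496 RPKM in root, and none was counted on either side. Reads from near-identical copies may have been divided among them in a way the sources used here do not describe, so values of single copies are less certain than their sums.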

How the data were processed

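The series holds 4 RNA-seq libraries of cucumber, 1 each of low nitrogen leaf, low nitrogen root, control leaf and control root, sequenced on Illumina. The authors deposited 1 table of RPKM values to 2 decimals, with gene length, Arabidopsis homologue and symbol, per the file headers. The submitters' processing notes list Bowtie 0.12.9, a short-read aligner. Neither genome build nor counting program nor filter is given in those notes or in the labels. The RPKM columns have different sums and were used as deposited, with no further normalization.

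From them, log2((leaf + 1)/(root + 1)) was computed for genes averaging 5 RPKM or more over a pair, with a ratio of at least 1 or at most -1 counted, in Python 3.11.15 with pandas 2.3.3, numpy 2.4.6 and scipy 1.17.1. The added 1 RPKM understates folds of low genes. Depth was estimated from the spacing of low values, within a rounding tolerance of 0.0051 RPKM. The search covered a range set beforehand and kept the smallest depth that fitted nearly as well as the best, so larger depths are not excluded. At the deposited gene lengths, 1549 of 5599 genes checked in low nitrogen leaf and 1444 of 4708 in low nitrogen root fell on whole reads. The simulated data used as a check took those lengths as exact, so they do not cover this misfit. Whole reads were assigned for 84.4% of genes by trying lengths from 100 bases up to the deposited one. The shortest that fitted was kept, so this share is no check of the depth. Counting intervals are exact 95% binomial intervals on the smallest whole reads a value allows, cover counting error only, and exclude 1 for 1899 of the 1905 genes higher in leaf that have reads and for 2842 of the 2861 lower. Where 1 library was listed at 0 no fold is given.

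The 31 gene lists hold 880 Arabidopsis homologues, 599 of them in the table, matched on the homologue ID. The members and the lists were chosen with earlier results of these data known. Genes were named by rule: the 15 with a symbol and 5 without at each end, the 10 highest in each library, all members of the 3 lists of nitrogen transport and assimilation, up to 4 of each other list by ratio and 2 by level, 8 at each end of the low nitrogen minus control difference and the 5 of at least 50 RPKM nearest 0. Further list members, chiefly those on the side opposite to their list, copies and neighbours, were named after their values were seen. No gene ID matched the 23999 genes of the RefSeq table, so no coordinates or sequences are given. The alternatives were other pseudocounts, filters, scalings and thresholds and summing genes by homologue.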

Additional observations from a re-analysis of the deposited data

Results flagged for a closer look

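Among the 9945 genes compared in both pairs, 12 were on opposite sides of the threshold on low nitrogen and in control. With 1 library a group the difference between the pairs was not tested for any of them, and each value below is the low nitrogen organ ratio minus the control organ ratio. Genes lower in leaf on low nitrogen and higher in control numbered 5. Cucsa.036150, without a homologue in the table, had a difference of -6.41 and was at 0 RPKM in leaf and 34.7 RPKM in root on low nitrogen, against 7.84 RPKM in leaf and 2.72 RPKM in root in control. DIR1 (Cucsa.388050) had -4.44, with its levels given above. The homologue of AT3G62550 (Cucsa.090770), a universal stress protein in Arabidopsis, had -3.54, at 50.3 RPKM in leaf and 205 RPKM in root on low nitrogen, against 37.7 RPKM in leaf and 12.4 RPKM in root in control. The homologues of AT1G67330 (Cucsa.075730) and AT5G19150 (Cucsa.254060) had -2.96 and -2.45. In these 2 genes the root level was 27.1 RPKM and 277 RPKM on low nitrogen, against 8.3 RPKM and 109 RPKM in control.

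The other 7 were higher in leaf on low nitrogen and lower in control. Of these, 4 are histone or cyclin genes: CYCA1;1 (Cucsa.328220) with 3.88, HTA12 (Cucsa.379920) with 3.53, CYCD3;1 (Cucsa.244590) with 3.16 and HTA7 (Cucsa.091130) with 2.24. FLA8 (AT2G45470, Cucsa.362870), a fasciclin-like cell surface protein, had 2.67, at 101 RPKM in leaf and 48.05 RPKM in root on low nitrogen, against 38.1 RPKM in leaf and 118 RPKM in root in control. The homologues of AT4G28310 (Cucsa.147620) and AT5G48540 (Cucsa.184390) had 2.37 and 2.09. For AT4G28310 the leaf level was 42.4 RPKM on low nitrogen against 8.39 RPKM in control, with 18.9 RPKM and 21.2 RPKM in root.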

How the results depend on the processing

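Across 11 alternative settings, the counts of genes higher in leaf, lower in leaf and divided the same way in both pairs (4458 genes) stayed within 1.5 times their values in 27 of 33 cases. With a mean of at least 20 RPKM they were 1178, 1722 and 2213, and with a ratio of at least 2 in either direction 1286, 1749 and 2365; both settings count fewer genes by construction. The alternatives for the count in both pairs were chosen after seeing the data. The share of higher genes among those counted, 39.2% as deposited, was 34.9% with equal sums, 43.1% with upper quartile scaling and 42.4% with a ratio of at least 2; centring on the median gave 50.2%, a balance that it sets by construction. Of 310 recomputed list medians, 252 moved by less than 1.5-fold, 53 moved by more and 5 changed sign: with a mean of at least 20 RPKM, suberin was 1.26, iron and metal transport 0.31 and expansins 1.304, and nitrate transport was 0.13 with no filter and 0.00595 with genes summed by homologue; the cause was not tested. Of 1422 recomputed ratios of named genes, none that was past the threshold changed sign, 1407 stayed on their side of the threshold, 11 fell within it and 4 passed it. No paired analysis was possible because each group is 1 library and the labels carry no replicate numbers. With an estimated 2.74 M to 4.23 M reads, levels below 1 RPKM can rest on 1 to 3 reads, and wide ratios against such levels are loosely bounded above.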

Other observations

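Gene families were also taken by the start of the deposited symbol, chosen after the data were seen. Their counts were not tested and can be read against the 20.4% higher and 31.6% lower of all genes. Of 33 WRKY factors compared on low nitrogen, 19 were lower and 2 higher in leaf, with a median ratio of -1.78, against 31.6% and 20.4% of all genes. WRKY65 (AT1G29280, Cucsa.212870) had the lowest ratio, at 0.72 RPKM in leaf and 134 RPKM in root on low nitrogen, against 0 RPKM in leaf and 149 RPKM in root in control, and WRKY71 (AT1G29860, Cucsa.239590) the highest, at 8.9 RPKM in leaf and 2.04 RPKM in root on low nitrogen. Of 14 NAC factors, 7 were lower and 1 was higher, NAC036 (AT2G17040, Cucsa.119310), at 29.8 RPKM in leaf and 2.66 RPKM in root. Of 27 MYB factors, 16 were lower and 6 higher, with MYB48 (AT3G46130, Cucsa.379880) the most abundant, at 25.7 RPKM in leaf and 829 RPKM in root on low nitrogen. Control leaf had 22.2 RPKM and control root 587 RPKM. Cytochrome P450 genes lay on both sides, with 26 higher and 22 lower of 55, and included CYP87A2 (AT1G12740, Cucsa.097790) at 262 RPKM in low nitrogen leaf and 0 in low nitrogen root, against 822 RPKM in control leaf and 0.13 RPKM in control root. Glutathione transferases were higher in 6 and lower in 9 of 18, and 3 neighbours named GSTU19 on scaffold01233 were all higher in leaf, summing to 514 RPKM in leaf and 135 RPKM in root. Glycosyltransferases named UGT were higher in 7 and lower in 7 of 20. Auxin response repressors named IAA were higher in 3 and lower in 5 of 14, and the copies of IAA4 split, with Cucsa.388760 at 25.2 RPKM in leaf and 2.76 RPKM in root and Cucsa.386650 at 4.69 RPKM in leaf and 147 RPKM in root. Of 13 homeodomain genes named HB, 3 were higher and 4 lower, of 9 ERF factors 3 were higher and 2 lower, and of 8 heat shock factors 2 were higher and 1 was lower. The IAA and HB counts lie near the shares of all genes, so they say nothing particular about these families.

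Genes without an Arabidopsis homologue in the table leaned to the root more than the table as a whole. Of 411 compared on low nitrogen, 191 (46.5%) were lower and 74 (18.0%) higher in leaf, with a median ratio of -0.82, against 31.6% and 20.4% of all genes; the difference was not tested. Beside those named above, Cucsa.100780 was at 0 in both leaf libraries, with 1091 RPKM in low nitrogen root and 1476 RPKM in control root. Cucsa.256380 was on the leaf side, with 1651 RPKM in leaf and 31.1 RPKM in root on low nitrogen, against 1161 RPKM in leaf and 7.97 RPKM in root in control. Cucsa.151380 had 21.6 RPKM in leaf and 1054 RPKM in root on low nitrogen, against 134 RPKM in leaf and 1133 RPKM in root in control, so that its leaf level differed more between the nutrient groups than its root level.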
